A study of Homo sapiens with 2 samples.

Results

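The 10 genes encoding origin firing factors and GINS subunits, CDC45, GINS1, GINS2, GINS3, GINS4, CDC7, DBF4, TOPBP1, RECQL4 and TICRR, were examined for binding of Flag-ETV4. They were chosen by name out of 19974 protein-coding RefSeq genes on chromosomes 1 to 22 and X, and for each gene every ETV4 peak within 10 kb of the gene span was taken. All 10 genes had at least 1 peak within 1 kb of a gene end, as did 62.3% of all protein-coding genes, and together they had 18 peaks. The enrichment at the starts ranged from 4.32-fold at GINS1 to 60.9-fold at DBF4, and 6 of the 10 were below the median of all genes with a listed start and a peak there. These 6 include GINS4 and RECQL4, for which no start was listed, whereas the 4 above the median all had a listed start. The ChIP-seq was done in A549, a human non-small cell lung cancer (NSCLC) line of adenocarcinoma origin that carried an shRNA against ETV4 and was then transfected with Flag-ETV4. It consisted of 1 anti-Flag immunoprecipitate (IP) and 1 input library, both from A549, and only the peak list of the IP was used. The input entered only through the control level that the caller set for each peak. The peaks therefore show a tagged and re-expressed ETV4 in 1 library. No replicate SD and no test between conditions can be given, and intervals below cover counting error only.

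Replication origins are licensed in G1 by loading of the MCM2-7 double hexamer, which stays inactive until S phase. Firing needs DDK, the kinase made of CDC7 and its activating subunit DBF4, together with cyclin-dependent kinases that let TICRR (Treslin) bind TOPBP1. CDC45 and the 4-subunit GINS complex are then recruited to MCM2-7 to form the active CMG helicase, and RECQL4, a RecQ family helicase, is needed for this step. ETV4 is an ETS factor of the PEA3 group, and ETS factors recognise DNA with a GGAA core. Genes of DNA replication are well-known targets of E2F factors in late G1.

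The start sequences shown here are those of the gene with the highest enrichment, DBF4, of the 3 genes whose start window held the ETS letters, GINS3, TOPBP1 and GINS2, and of GINS1, the gene with the lowest enrichment. Each is the RefSeq window on GRCh38.p14 from 250 bases before the outermost start to 50 bases after it, written 5′ to 3′ on the strand of the gene. The windows lie at chr7:87876243-87876542 (plus strand) for DBF4, chr16:58392221-58392520 (plus) for GINS3, chr3:133661892-133662191 (minus) for TOPBP1, chr16:85688905-85689204 (minus) for GINS2 and chr20:25407423-25407722 (plus) for GINS1. Capitals mark CCGGAA, the ETS letters searched, or its reverse complement TTCCGG.
DBF4: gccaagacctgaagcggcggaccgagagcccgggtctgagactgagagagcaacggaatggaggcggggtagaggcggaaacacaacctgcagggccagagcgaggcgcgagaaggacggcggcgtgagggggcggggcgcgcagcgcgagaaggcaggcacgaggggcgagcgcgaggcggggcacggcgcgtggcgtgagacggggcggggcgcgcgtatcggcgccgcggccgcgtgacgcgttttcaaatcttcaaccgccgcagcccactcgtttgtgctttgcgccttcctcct
GINS3: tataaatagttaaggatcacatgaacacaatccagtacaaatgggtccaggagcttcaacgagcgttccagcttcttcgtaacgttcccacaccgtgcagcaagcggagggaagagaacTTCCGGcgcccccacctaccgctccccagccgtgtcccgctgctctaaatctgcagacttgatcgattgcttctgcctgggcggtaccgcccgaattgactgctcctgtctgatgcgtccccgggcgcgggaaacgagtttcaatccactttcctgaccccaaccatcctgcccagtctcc
TOPBP1: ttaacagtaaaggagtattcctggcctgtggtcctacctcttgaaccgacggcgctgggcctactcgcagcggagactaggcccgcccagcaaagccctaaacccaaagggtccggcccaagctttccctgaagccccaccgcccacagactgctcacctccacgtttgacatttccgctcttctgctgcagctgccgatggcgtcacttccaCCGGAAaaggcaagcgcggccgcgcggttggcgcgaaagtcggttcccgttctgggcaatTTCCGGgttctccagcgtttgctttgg
GINS2: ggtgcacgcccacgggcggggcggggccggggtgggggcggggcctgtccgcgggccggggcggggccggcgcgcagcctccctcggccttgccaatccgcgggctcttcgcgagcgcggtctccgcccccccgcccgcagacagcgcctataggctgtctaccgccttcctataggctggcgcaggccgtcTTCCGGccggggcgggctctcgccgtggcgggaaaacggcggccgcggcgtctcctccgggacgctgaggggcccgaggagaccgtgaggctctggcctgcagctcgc
GINS1: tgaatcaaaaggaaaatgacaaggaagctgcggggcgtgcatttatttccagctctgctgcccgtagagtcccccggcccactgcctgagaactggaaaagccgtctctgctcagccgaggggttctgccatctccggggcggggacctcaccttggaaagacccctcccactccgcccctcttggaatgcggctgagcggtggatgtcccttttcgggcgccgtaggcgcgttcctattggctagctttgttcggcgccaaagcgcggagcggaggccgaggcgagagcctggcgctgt

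The RefSeq promoter table held a start for 8 of the 10 genes, and all 8 showed a peak no more than 1 kb away from the outermost one. Of the 15813 protein-coding genes with a listed start, 61.4% had such a peak. For GINS4 and RECQL4 both ends of the gene were searched, and each had a peak at 1 end, against 62.3% of all protein-coding genes with a peak within 1 kb of either end. These ends are called starts in what follows. With the wider window of 10 kb around the span, 10 of 10 genes had a peak, against 81.9% of all protein-coding genes. With a fold enrichment over 10 required, 5 of the 10 genes had a start peak, against 44.6% of all genes with a listed start. All 5 were among the 8 with a listed start. GINS4 and RECQL4, with folds of 6.55 and 8.46, do not belong to the set behind that share. The count thus exceeded the background where any start peak was accepted, while in the 10 kb window it was nearer to the share of all genes. Where a strong peak was required, the count was near the 44.6% over all 10 genes. Over the 8 comparable ones it was above 44.6%, but all 8 had a start peak. Of all genes with a start peak, 72.5% had one over 10-fold, and 5 of 8 was not above that share.

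Fold enrichment is the ratio of the IP to the control at the summit, with 1 added to both, as the authors' peak caller gave it. The −log10 q is its corrected significance. The number of IP fragments at the summit, the pileup, and the control level there were solved from the fold and the −log10 p of each peak. The start peaks of the 10 genes had a median fold of 9.6, against 17.5 over the 9717 genes with a start peak. The 9717 all had a listed start, so GINS4 and RECQL4, with folds of 6.55 and 8.46, were not among them. Both lay below the median of the 10 genes and lowered it. Over the 8 genes with a listed start the middle folds were 10.8 and 19.8, on either side of 17.5. The 10 genes had a median pileup of 32.5 fragments and a median width of 934 bp, against 53 fragments and 1079 bp over all start peaks. Ranked by fold among all start peaks, the 10 genes ranged from the 4.19th percentile for GINS1 to the 96.2th for DBF4. Control levels lay between 1.37 and 3.38, a 2.47-fold range, whereas pileups lay between 12 and 245 fragments, a 20.4-fold range. The order of the genes was thus set mainly by the IP signal.

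**Figure D1:**
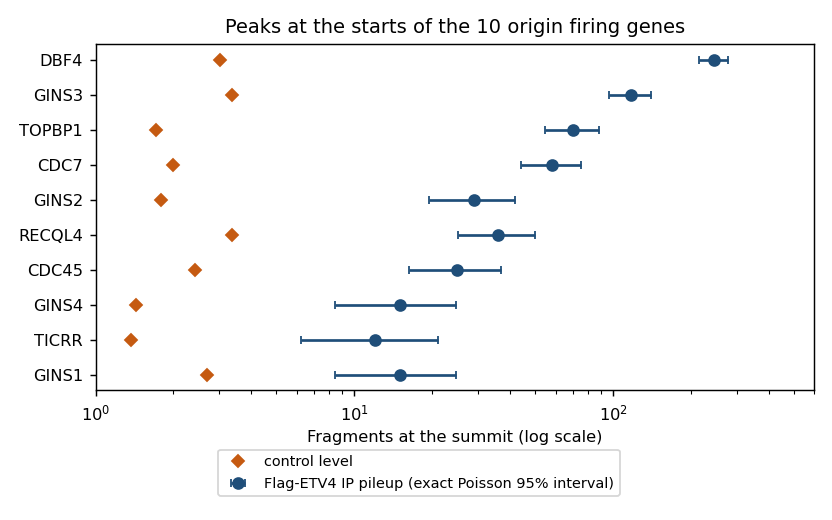
Pileup of IP fragments at the summit of the start peak of each gene (circles, with exact Poisson 95% intervals) and the control level there (diamonds), on a log axis in fragments, with genes ordered by fold enrichment. Pileups run from 12 fragments at TICRR to 245 at DBF4, while all control levels stay between 1.37 and 3.38.

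The strongest start peak was at DBF4, the regulatory subunit of DDK. It spanned 1672 bp of chromosome 7, 87875661 to 87877332, and was enriched 60.9-fold with a −log10 q of 361. At the summit 245 fragments were piled up (exact Poisson 95% interval 215 to 278) over a control of 3.04. The summit lay 465 bp upstream of DBF4 and 332 bp inside SLC25A40, a mitochondrial carrier gene whose start is 133 bp from that of DBF4. The peak covered both starts, so it cannot be told apart which of the pair it belongs to. The peak was the only one within 10 kb of DBF4.

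CDC7, the catalytic subunit of the same kinase, had a start peak on chromosome 1, positions 91500435 to 91501554, that was enriched 19.8-fold with a −log10 q of 60.6. Its summit held 58 fragments (44.0 to 75.0) over a control of 1.99. The summit lay 446 bp inside the outermost start, and 185 bp from the nearer of the 2 listed starts of CDC7. The fold at DBF4 was 3.08 times that at CDC7, and the intervals of the pileups did not overlap. The outermost start of CDC7 adjoins the end of a lncRNA gene on the opposite strand, LOC105378856, at a distance of 3 bp, and the peak covered both. A second peak lay 4.63 kb beyond the 3′ end of CDC7, from 91529635 to 91530575, with a fold of 13.0 and 34 fragments (23.5 to 47.5), an interval that overlapped that of the start peak. The summit of that peak lay inside the lncRNA gene LOC102723436, and the nearest gene end was that of the pseudogene WDR82P2, at 1563 bp.

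The 4 GINS genes differed in their start peaks. GINS3 had the most fragments, 117 at the summit (96.8 to 140) over a control of 3.38. Its peak on chromosome 16, 58392217 to 58392930, was enriched 27.0-fold with a −log10 q of 131, and the summit was 18 bp inside the start. GINS2, on the same chromosome, had a peak at 85688433 to 85689350 with a fold of 10.8, and 29 fragments (19.4 to 41.6) over 1.79. Its summit lay 52 bp upstream of the start, and the peak reached the end of the lncRNA gene LOC124903740, 389 bp from that start. The weaker pair, GINS4 and GINS1, each had 15 fragments (8.4 to 24.7) at the summit. The GINS4 peak, at 41528923 to 41529414 on chromosome 8, had a fold of 6.55 over a control of 1.44 and a −log10 q of 9.14. The GINS1 peak, at 25407488 to 25407727 on chromosome 20, had a fold of 4.32 over a control of 2.70 and a −log10 q of 5.39. The difference in fold between GINS4 and GINS1, 1.52 times, therefore came from the control level alone. The GINS3 pileup interval overlapped none of the other 3, while the intervals of GINS2, GINS4 and GINS1 overlapped each other.

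GINS1 also had the narrowest start peak of the 10 genes, 240 bp, at the 0.597th percentile of width among all start peaks. Its summit was 58 bp upstream of the start and lay inside LOC105372581, a lncRNA gene whose span overlaps that of GINS1 by 623 bp. GINS2, GINS1 and GINS4 had no second peak within 10 kb. GINS3 had a second peak 5.40 kb beyond its 3′ end, 58411318 to 58411943, with a fold of 13.1 and 29 fragments (19.4 to 41.6) over a control of 1.28, the lowest in the list.

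At CDC45, the helicase component that joins MCM2-7 and GINS, 2 peaks lay within 1 kb of the outermost start on chromosome 22. The stronger, 19478597 to 19479513, was enriched 7.59-fold with a −log10 q of 15.3, from 25 fragments (16.2 to 36.9) over a control of 2.43. Its summit was 288 bp upstream of CDC45 and 15 bp inside UFD1, a ubiquitin-recognition gene whose end is 273 bp from the start of CDC45. The other, from 19479863 to 19480348, had its summit 655 bp inside CDC45, a fold of 6.54 and 21 fragments (13.0 to 32.1). The pileup intervals of the pair overlapped, and a difference between the 2 peaks was not tested.

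TOPBP1 and TICRR, partners in the step that brings CDC45 and GINS to the origin, differed in their start peaks. The TOPBP1 peak on chromosome 3, 133661438 to 133662574, was enriched 26.2-fold with a −log10 q of 83.1, from 70 fragments (54.6 to 88.4) over 1.71. Its summit was 73 bp upstream of TOPBP1 and 16 bp inside the outermost RefSeq start of TF, the transferrin gene, which RefSeq places on the other strand. It also lay inside LOC124909487, a RefSeq gene that overlaps TOPBP1 by 716 bp. The TICRR peak on chromosome 15, 89575471 to 89576420, had a fold of 5.50, a −log10 q of 6.43 and 12 fragments (6.20 to 21.0) over 1.37. It lay wholly inside the outermost start, and its summit was 20 bp from the nearer of the 2 listed starts. The fold at TOPBP1 was 4.76 times that at TICRR, with pileup intervals that did not overlap.

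Within TICRR, however, a second peak was stronger than the one at the start. It lay 12.7 kb inside the gene, from 89587874 to 89588575, with a fold of 24.6 and 65 fragments (50.2 to 82.8) over 1.69. This was 4.47 times the fold at the start, and the pileup intervals did not overlap. The nearest end of any RefSeq gene was that of TICRR itself, 12705 bp away. The peak inside TOPBP1, from 133621952 to 133622184, was by contrast among the weakest, with a fold of 3.97 and 11 fragments (5.49 to 19.7).

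RECQL4, on chromosome 8, had the most peaks, 4. The peak at its start, 144517322 to 144518487, was enriched 8.46-fold with a −log10 q of 22.6, from 36 fragments (25.2 to 49.8) over 3.38. The summit was 351 bp outside RECQL4 and 192 bp inside LRRC14, whose end is 159 bp from that of RECQL4. The 2 strongest peaks lay past the opposite end of the gene. The one from 144508127 to 144509560 had a fold of 39.0 and 183 fragments (157 to 212), 4.61 times the fold at the start, and its nearest gene end was that of SLC33A2 at 611 bp. The one from 144507204 to 144507821 had a fold of 29.2 and 81 fragments (64.3 to 101), and its nearest gene end was that of GPT, the alanine aminotransferase gene, at 366 bp. The fourth, 35 bp from an end of LRRC24, had a fold of 6.54 and 21 fragments (13.0 to 32.1). None of the 4 summits had RECQL4 as the gene with the nearest end.

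**Figure D2:**
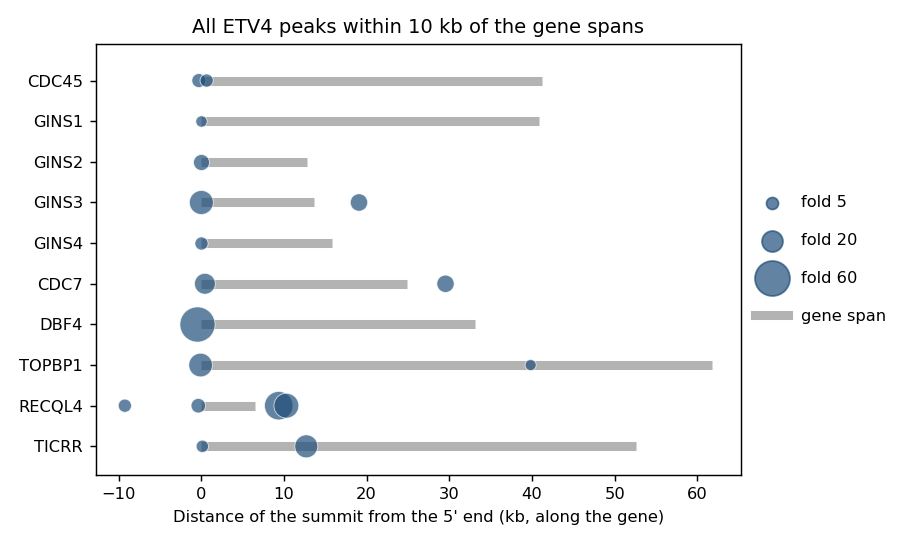
Position of the summits of all 18 peaks within 10 kb of the gene spans, in kb from the 5′ end along each gene (for GINS4 and RECQL4, from the end with the start peak), with the gene span in grey and circle area growing with fold enrichment. In 8 of 10 genes the strongest peak is at the start, and 4 of these have no other peak. TICRR has a stronger peak 12.7 kb inside and RECQL4 has stronger ones past its other end.

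In 8 of the 10 genes the strongest peak within 10 kb of the span was the one at the start, against 66.3% of all genes with a start peak. Of these 8, 4 had no other peak there, and the 66.3% likewise includes genes with a single peak. Start peak summits lay within 100 bp of the outermost start in 5 of the 10 genes, GINS1, GINS2, GINS3, GINS4 and TOPBP1, against 26.6% of all start peaks. The interval covered the start in 9 of 10 genes, the exception being TICRR. The share of all start peaks that do so was not computed. For GINS4 and RECQL4 the start was taken as the gene end nearer to the summit, which favours closeness and cover. Fold intervals were taken as the pileup interval over the control level, with 1 added to both. Ordered by fold, 8 of the 9 pairs of neighbouring genes had overlapping intervals. The exception was the step from DBF4 (53.6 to 69.0) to GINS3 (22.3 to 32.3). The order was DBF4, GINS3, TOPBP1, CDC7, GINS2, RECQL4, CDC45, GINS4, TICRR, GINS1. In it the intervals from DBF4 to CDC7 all lay above those from RECQL4 to GINS1. An overlap of intervals is not a test of difference, so whether neighbours with overlapping intervals differ was not tested.

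**Figure D3:**
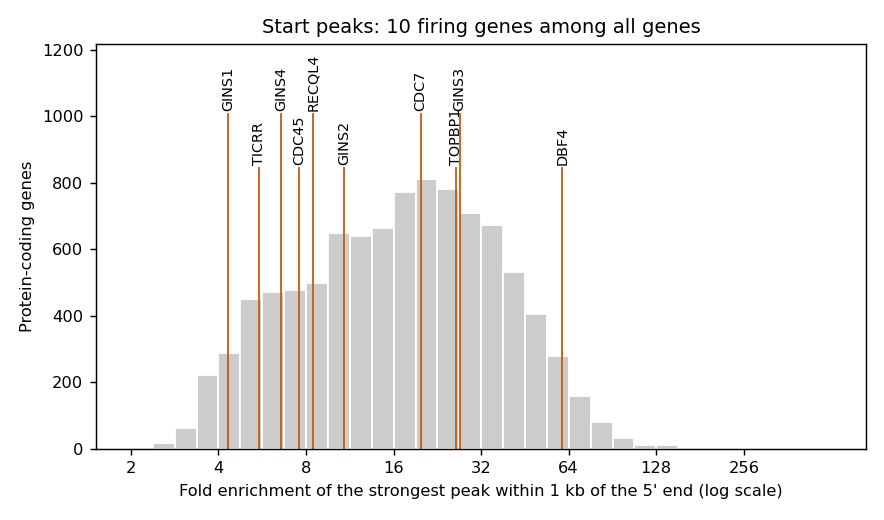
Number of protein-coding genes (vertical axis) by the fold enrichment of the strongest peak within 1 kb of the 5′ end (horizontal log axis), over 9717 genes with such a peak, with a vertical line for each of the 10 firing genes. Of these lines, 6 fall below the median of 17.5 and 4 above it, with DBF4 alone near the upper edge. The 9717 genes have a listed start, and GINS4 and RECQL4, among the 6, do not.

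Another gene ended or began within 1 kb of the start of 7 of the 10 genes, all but GINS3, GINS4 and TICRR, and for 4 of them, CDC45, DBF4, TOPBP1 and RECQL4, at least 1 such neighbour was protein-coding. In 6 of the 7 the start peak also covered the end of the neighbour. The share of all genes with such a covered end was not computed, so this count describes the 7 genes only. Over all protein-coding genes with a listed start, 34.5% had such a neighbour. Of the genes with one, 79.1% had a start peak, against 52.1% of those without, while the median folds of the start peaks were 18 and 17. Close neighbours thus went with the presence of a start peak more than with its height, and their part in the count of 10 of 10 was not tested.

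The letters CCGGAA occurred on either strand in the outermost start window of 3 of the 8 genes, against 17.2% of all 35116 windows in the table. These were GINS2, GINS3 and TOPBP1, with start peak folds between 10.8 and 27.0. The 35116 windows, here and for the other letters below, include further listed starts of a gene and not only the outermost one. In GINS2 the letters were 1 bp from the summit, 58 to 53 bp upstream of the start. In TOPBP1 they occurred 2 times, on opposite strands, 36 and 96 bp from the summit, and in GINS3 they were 144 bp from it. The 5 genes without them had folds between 4.32 and 60.9, so DBF4 had the strongest peak and no CCGGAA in its window. Its summit, like those of CDC45 and CDC7, lay outside the listed start windows of the gene, and the bases under it were not analysed here. The TICRR summit lay outside the outermost window but inside that of the other listed start, which held no CCGGAA. Of the 2754 protein-coding windows that held a summit, 50.1% held CCGGAA, against 9.22% of the 5109 windows with no peak within 1 kb of the start. Of the firing genes, 4 had the summit in the outermost window, GINS1, GINS2, GINS3 and TOPBP1, and 3 of these windows held the letters. With the second window of TICRR counted, it was 3 of 5.

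The shorter core GGAA was in all 8 windows, 3 to 7 times in each, but also in 95.5% of all windows. The E2F letters, TTTCGCGC or TTTGGCGC on either strand, were in the windows of TOPBP1 and GINS1, 2 of 8, against 1.15% of all windows. In TOPBP1 they lay between the 2 ETS matches. CCAAT, the letters of NFY, was in 3 of 8 windows, with 5 copies in that of TICRR, against 34.6% of all, and GGGCGG, the letters of SP1, was in 7 of 8, against 45% of all. A match is a description of the letters and not evidence of a bound factor. GC content ranged from 49.7% in CDC45 to 78.3% in GINS2, around the median of 62.7% of protein-coding windows.

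**Figure D4:**
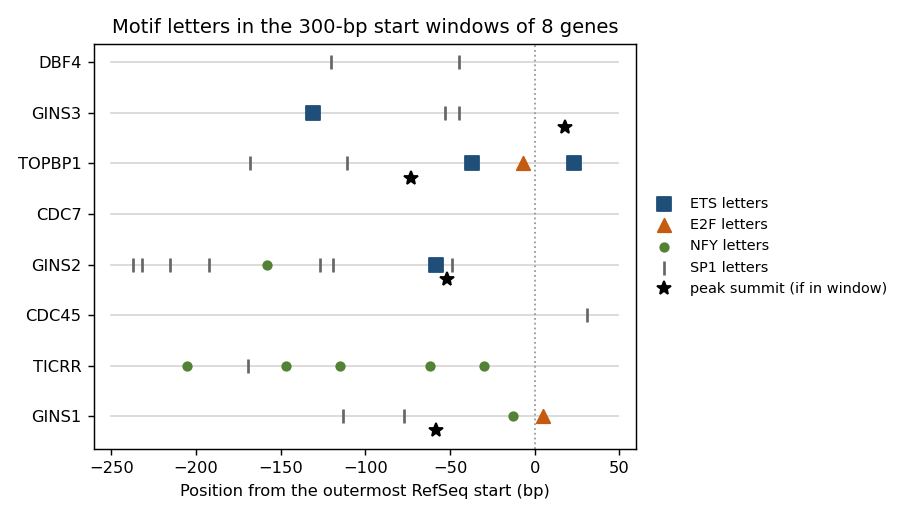
Positions of the ETS (CCGGAA), E2F, NFY and SP1 letters, on either strand, in the outermost 300-bp RefSeq start windows of 8 genes, in bp from the start, with stars for peak summits that fall in a window. The ETS letters are seen in GINS3, TOPBP1 and GINS2 alone, and in GINS2 they sit at the summit.

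The genes that act beside these factors were taken as 3 further lists, for which both ends were searched where no start was listed. The shares of all genes to read these counts against are the 61.4% with a start peak and the 44.6% with one over 10-fold, or 62.3% where both ends count. Of the 6 MCM2-7 subunits, 6 had a start peak, with a median fold of 16.6 and a range of 4.84 to 61.9. Of 8 genes of origin recognition and licensing, 6 had a start peak, near the share of all genes, with a median fold of 13.6 and a range of 5.38 to 41.0. The others, named here after their values were seen, were ORC1, with 2 peaks elsewhere within 10 kb of its span, and ORC5, with 0. For ORC1 the paper reports promoter enrichment of ETV4 from this ChIP-seq, and binding by ChIP-PCR in other NSCLC cells. Here only peaks within 1 kb of the outermost RefSeq start were counted. Of 17 other genes of origin firing and fork progression, 17 had a start peak and 9 had one over 10-fold, the latter near the share of all genes, with a median fold of 13.8. The highest of these were CLSPN, the checkpoint mediator claspin, with a fold of 51.4, CCNE2, an E-type cyclin, with 44.8, and POLE3, a subunit of DNA polymerase epsilon, with 40.4. The lowest were CCNA2, cyclin A2, with 3.24 and 11 fragments, MCM10 with 3.97 and 11 fragments, and CDK2 with 4.18 and 13 fragments. CCNE2 and CDK2 had no listed start, so both of their ends were searched. For MCM10, as for ORC1, the paper reports promoter enrichment of ETV4 from this ChIP-seq. The median of the 10 firing genes, 9.6, was below that of each of the other lists. This order depends in part on GINS4 and RECQL4, with folds of 6.55 and 8.46 and no listed start. Over the 8 firing genes with a listed start the middle folds were 10.8 and 19.8, on either side of 16.6, 13.6 and 13.8. The ranges overlapped widely and the differences were not tested, as genes are not replicates.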

How the data were processed

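Chromatin of A549 cells with knocked-down ETV4 and transfected Flag-ETV4 was immunoprecipitated with a Flag antibody, given as one from CST in the paper and one from Sigma in the labels. The authors deposited the peaks of this single IP library, with no pooling. Per the submitters' processing notes, Bowtie2 2.4.1, SAMtools, MACS2 2.2.7.1 and deepTools 3.5.0 were used with hg38; parameters and duplicate handling are not given in the sources used here. For each peak the deposited values are the fold enrichment as a ratio over the control, the −log10 p-value, the −log10 q-value (lowest 1.30), the summit offset and a display score, which was not used.

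The list held 54389 peaks. Positions were compared with RefSeq gene spans (GRCh38.p14) and are 1-based. Direction and starts came from a RefSeq promoter table. The pileup k and control level c were solved from fold = (k + 1)/(c + 1) and the Poisson probability of a higher pileup. The solved pileups of 100% of the peaks were whole to within 0.01, with a median of 26 fragments and a 5th percentile of 9. The solution was tested on simulated peaks. No test between conditions was possible. A gene was represented by its highest-fold peak within 1 kb of the outermost start.

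The members and lists were chosen with earlier results of these data known. All 10 genes are named with every peak, plus neighbours with an end within 1 kb of a start or nearest to a peak, and the 3 highest and 3 lowest of the list of other firing genes. Alternatives covered fold over 5 or 10, −log10 q over 10, other windows, summits, either end and other motif letters. Scripts ran in Python 3.11.15 with scipy 1.17.1, pandas 2.3.3, numpy 2.4.6 and, for figures, matplotlib 3.10.9.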

Additional observations from a re-analysis of the deposited data

How the results depend on the processing

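No paired analysis was possible because there was 1 IP library and no replicate. Of 26 alternative values, 21 stayed within 1.5 times the reported count or, for the median fold, within the range that counting error gives it, 6.66 to 13.5. A drop from 10 to 7 genes counts as within this margin. Requiring a fold over 10 left 5 of the 10 genes with a start peak and 10 of the 18 peaks within 10 kb. Expressed as a percentile among start peaks of protein-coding genes, the median of the 10 genes was 26.3 in place of a fold of 9.6. The percentile has another unit, so its place outside the range of folds says nothing on stability. The longer letters CCGGAAGT were in 1 window, that of GINS3, and GGAA in 8, in place of 3 windows with CCGGAA. Taking any listed RefSeq start in place of the outermost, an alternative chosen after seeing the data, left the count at 10, with 64.5% of all genes. With −log10 q over 10 required, 7 of the 10 genes kept a start peak, against 53.2% of all. Pileups of 12 to 15 fragments at TICRR, GINS1 and GINS4 leave folds uncertain by more than 1.5 times in either direction.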
